A study of Homo sapiens with 4 samples.

Results

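The 10 genes described here encode subunits and partners of TREX, the transcription and export complex that readies mRNA for the nuclear pore. They were chosen by symbol, matched to Ensembl gene identifiers of GENCODE release 29, and all 10 were found among the 58735 genes counted. RNA was sequenced from A549, a human lung adenocarcinoma cell line, in 4 libraries. In 2 of them (shControl, genotype labelled WT) the cells had been infected with a control hairpin lentivirus. In the other 2 (shRALY, labelled RALY knockdown) the lentivirus carried a hairpin against RALY, a member of the hnRNP family of RNA-binding proteins. Both groups thus carry a lentivirus, and both are labelled as day 2 of infection. Only this single line was used, and the number of hairpins against RALY is not given in the sources used here. The comparison asks how the transcripts of the export machinery stood after RALY was depleted.

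In the nucleus the THO complex, made of THOC1, THOC2, THOC3, THOC5, THOC6 and THOC7, associates with nascent transcripts. It acts together with a DEAD-box ATPase, DDX39B (also called UAP56) or its paralog DDX39A (also called URH49), and with the adaptor ALYREF. The adaptor hands the mRNA to the export receptor NXF1, which carries it through the pore together with its cofactor NXT1.

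Total counts were 16745818 to 18632787 per library. The labels do not say that replicates were separate cultures, so every p-value below measures only the spread between these libraries, which may be technical. The fit estimates that spread for each gene with information shared across all tested genes. A standard error or interval thus does not rest on the gene's own libraries alone. Levels are in CPM, the share of a library's TMM-scaled counts on the usual scale. Because RNA was sequenced in bulk, fewer cells of a kind and less RNA per cell cannot be told apart, and a change in total RNA per cell would not be seen. RALY itself had 2208 and 2272 counts in shControl and 751 and 679 in shRALY. That was 32.1% of the control level (log2 -1.64, SE 0.11; adjusted p = 5.85e-11). Throughout, the adjusted p is that of the quasi-likelihood F-test in edgeR, adjusted by Benjamini and Hochberg over all genes tested, and a gene is said to rise or fall where it was under 0.05. All 8 listed epithelial and A549 markers were tested, and their summed level was 17738 to 18013 CPM in shControl and 18597 to 18711 CPM in shRALY. The alveolar type II markers, among them SFTPC, summed to at most 1.90 CPM in any library. Immune markers summed to 5.14 to 8.32 CPM over the 4 libraries, endothelial markers to at most 0.82 CPM and fibroblast markers to 13.7 to 18.5 CPM. CD3E and LYZ were at 0 in every library. Of these other markers 4 could be tested, and none passed. Of the epithelial and A549 markers 2 rose and 1 fell.

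Upstream windows are shown for THOC3, ALYREF and DDX39A, which fell together after RALY depletion, and for THOC5, which did not fall. They are 300-base windows from RefSeq (GRCh38.p14), from 250 bases before to 50 after an annotated start, written 5′ to 3′ on the gene's strand. Capitals mark matches on either strand to the motifs searched. Those were ETS (CCGGAAG), NRF1 (GCGCATGCG), the CCAAT box (CCAAT), CHR (TTTGAA), CRE core (TGACGTCA), YY1 (AAGATGGC) and E2F, the last in 4 forms (TTTGGCGC, TTTCCCGC, TTTCGCGC and TTTGCCGC).
THOC3, chr5:175968266-175968565, minus strand: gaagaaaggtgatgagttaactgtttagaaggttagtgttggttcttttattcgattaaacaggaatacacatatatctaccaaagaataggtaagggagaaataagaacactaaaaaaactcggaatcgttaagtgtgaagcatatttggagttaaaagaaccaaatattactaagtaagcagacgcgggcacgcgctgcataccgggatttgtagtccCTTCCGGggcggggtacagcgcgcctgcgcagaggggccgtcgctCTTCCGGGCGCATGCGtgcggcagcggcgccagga
ALYREF, chr17:81891537-81891836, minus strand: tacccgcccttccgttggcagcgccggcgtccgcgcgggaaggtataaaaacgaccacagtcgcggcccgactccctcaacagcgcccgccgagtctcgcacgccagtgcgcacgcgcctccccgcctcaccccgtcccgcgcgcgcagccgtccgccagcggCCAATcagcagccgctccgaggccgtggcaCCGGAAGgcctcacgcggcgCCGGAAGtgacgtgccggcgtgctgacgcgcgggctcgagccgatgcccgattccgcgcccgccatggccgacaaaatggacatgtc
DDX39A, chr19:14419334-14419633, minus strand: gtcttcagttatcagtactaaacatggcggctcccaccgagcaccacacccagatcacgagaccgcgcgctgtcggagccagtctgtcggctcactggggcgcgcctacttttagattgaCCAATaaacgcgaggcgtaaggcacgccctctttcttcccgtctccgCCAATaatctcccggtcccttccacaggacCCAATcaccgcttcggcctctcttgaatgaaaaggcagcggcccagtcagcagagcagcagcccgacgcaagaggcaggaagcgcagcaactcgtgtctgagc
THOC5, chr22:29553708-29554007, minus strand: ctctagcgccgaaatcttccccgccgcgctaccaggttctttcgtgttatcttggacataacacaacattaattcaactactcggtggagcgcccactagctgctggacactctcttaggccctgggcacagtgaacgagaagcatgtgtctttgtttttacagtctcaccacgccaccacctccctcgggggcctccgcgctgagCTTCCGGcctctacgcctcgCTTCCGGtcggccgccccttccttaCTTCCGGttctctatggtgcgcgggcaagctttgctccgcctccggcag

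Windows were at hand for 9 of the 10 genes, THOC7 being the exception. Together they have 12 windows, since ALYREF, DDX39A and THOC5 have a pair of overlapping ones each. The ETS letters occurred in 6 of the 12 windows, those of ALYREF, DDX39B, THOC3 and THOC5, and in 10.3% of all 35116 windows; the overlapping windows share their matches. These 4 genes include a pair that fell and a pair that did not pass the test. In THOC3 the matches begin at positions -30 and 15, counted from the start as 0, and the second adjoins an NRF1 match that begins at position 22. NRF1 letters were in 1.92% of all windows. ALYREF has ETS matches at positions -57 and -37 and a CCAAT box at -87. DDX39A has 3 CCAAT boxes, at -130, -83 and -53, and no ETS match. THOC5 has 3 ETS matches, at -44, -24 and 1. These positions hold for the windows shown. Counted from the other annotated start, the ETS matches of THOC5 are at -146, -126 and -101. The CCAAT boxes of DDX39A are then at -172, -125 and -95. CCAAT letters were in 5 of the 12 windows, those of ALYREF, DDX39A and THOC6, and in 34.6% of all windows. An E2F match was found for THOC2 alone (3.31% of all windows), as was a YY1 match (2.89%), and a CRE core match for THOC1 alone (1.85%). CHR letters were in none of the 9 genes' windows and in 15.2% of all windows. A match describes letters in these windows and no binding was measured.

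Of the 10 genes, 6 fell after RALY depletion and none rose. The 6 were the THO subunits THOC3, THOC7, THOC6 and THOC2, the helicase gene DDX39A and the adaptor gene ALYREF. Their levels in shRALY were 40.1% to 74.3% of those in shControl. THOC1, THOC5, DDX39B and NXF1 did not pass. All 10 genes passed the filter on low counts. Among the 15912 genes tested, 20.4% were called lower and 20.6% higher, so 6 lower and 0 higher of 10 stand beside that background. The genes were chosen with earlier results of these data known, so this is not an independent comparison. The 10 genes lay at percentiles 50.2 to 87.1 of level among all tested genes, and the background was not matched for level. DESeq2 also called 6 lower and 0 higher, where it called 15.2% of all genes lower and 16.6% higher. Before adjustment, edgeR gave a p under 0.05 for 7 genes: 7 were lower and 0 higher, beside 24.2% and 24% of all genes. The median log2 fold change was -0.60 over the 10 genes and -0.01 over all tested genes.

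**Figure D1:**
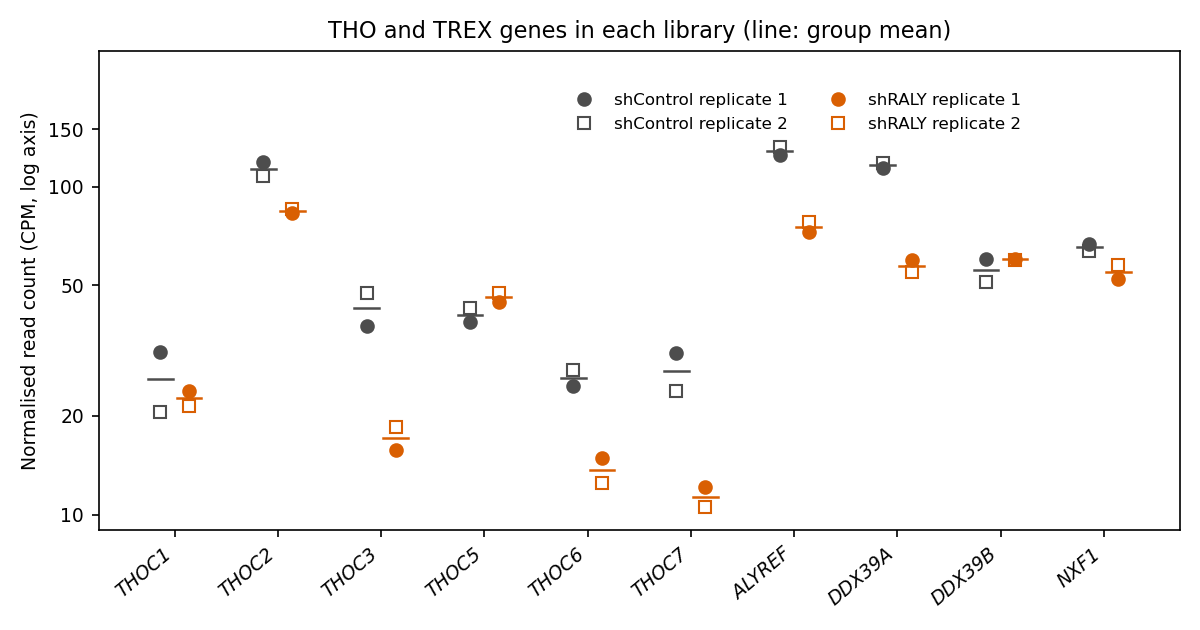
Normalised read count in CPM (log axis) of each of the 10 genes in each library, with filled circles for replicate 1, open squares for replicate 2 and a line at the group mean. For THOC2, THOC3, THOC6, THOC7, ALYREF, DDX39A and NXF1 both shRALY libraries lie below both shControl libraries, and for THOC1 and DDX39B the groups overlap.

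The THO subunits did not move alike. Of the 6, 4 fell, 2 did not pass and none rose, and the log2 fold changes ran from -1.32 to 0.18. Differences between subunits in their response were not tested. THOC3, a WD-repeat subunit, lies on chromosome 5 (minus strand, 175917873 to 176034680 in GRCh38). It stood at 37.7 and 47.5 CPM in shControl and at 15.7 and 18.5 CPM in shRALY. Both shRALY libraries were below both control libraries, with a log2 fold change of -1.32 (SE 0.15; adjusted p = 1.76e-07). THOC3 is an uncertain gene: 58.1% of the 50-base words of its longest transcript occur in transcripts of other genes, with AC106795.1 sharing the most. How reads that match several places were counted is not given in the sources used here.

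THOC7, a small coiled-coil subunit, lies on chromosome 3 (minus strand, 63833870 to 63863903). Its level was 31.0 and 23.8 CPM in shControl and 12.1 and 10.6 CPM in shRALY. The control libraries differed from each other, and the shRALY libraries were below the lower of them (log2 -1.27, SE 0.17; adjusted p = 1.67e-06). THOC6, a second WD-repeat subunit, lies on chromosome 16 (plus strand, 3024027 to 3027755). It measured 24.7 and 27.6 CPM in shControl and 14.9 and 12.5 CPM in shRALY. The groups did not overlap, and the log2 fold change was -0.93 (SE 0.16; adjusted p = 3.97e-05). Genes on the opposite strand overlap 18.0% of its exonic bases.

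THOC2, the large scaffold subunit, lies on the X chromosome (minus strand, 123600561 to 123733056). It measured 119 and 108 CPM in shControl and 83.2 and 85.6 CPM in shRALY. The decrease was the smallest of the 4 (log2 -0.43, SE 0.11; adjusted p = 0.00325). Its call was lost without shRALY replicate 1 (adjusted p = 0.13) and without shRALY replicate 2 (adjusted p = 0.0926), while the log2 fold changes were -0.40 and -0.44.

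THOC1 and THOC5 did not pass. THOC1, on chromosome 18 (minus strand, 214520 to 268050), is the subunit first known as an RB1-binding protein. It stood at 31.4 and 20.5 CPM in shControl and 23.8 and 21.5 CPM in shRALY. Both shRALY libraries lay between the control libraries (log2 -0.20, 95% interval -0.55 to 0.15; adjusted p = 0.379). The value rests on which control library is used: without shControl replicate 1 it was 0.14 (adjusted p = 0.487), and without shControl replicate 2 it was -0.45 and passed (adjusted p = 0.00698). THOC5, on chromosome 22 (minus strand, 29505879 to 29555216), is a coiled-coil subunit. It measured 38.6 and 42.6 CPM in shControl and 44.6 and 47.6 CPM in shRALY. Its shRALY libraries were both above the control libraries, without passing (log2 0.18, 95% interval -0.07 to 0.43; adjusted p = 0.246). Such separation is common here: in 34.2% of tested genes the shRALY libraries were both higher and in 35.4% both lower, 69.7% in all. Of the 10 genes here, 7 separated downward and 1, THOC5, upward.

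**Figure D2:**
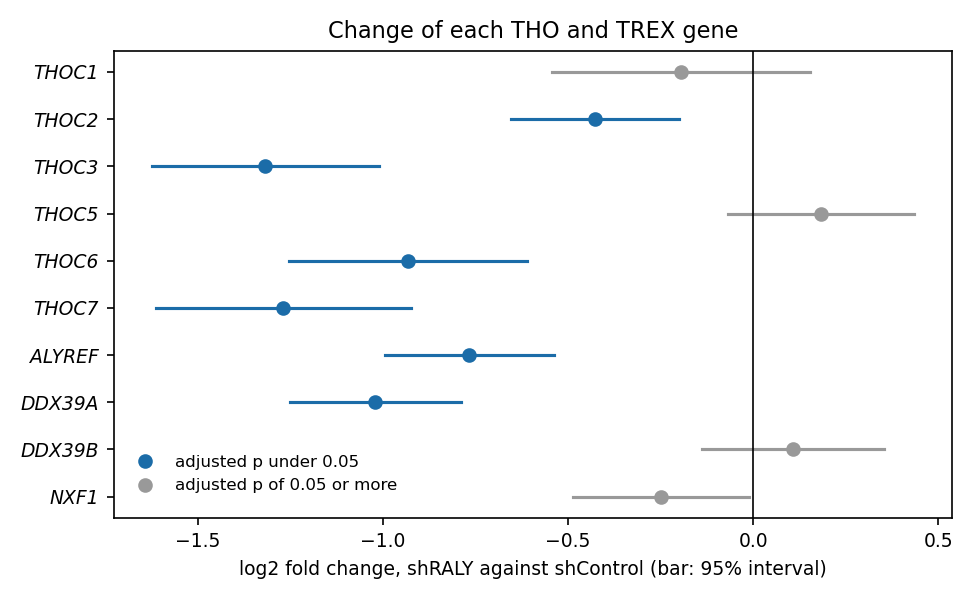
log2 fold change of each of the 10 genes in shRALY against shControl (points) with its 95% interval from the edgeR fit (bars). The intervals of THOC3, THOC7, THOC6, DDX39A, ALYREF and THOC2 lie wholly below 0 and carry adjusted p under 0.05, and those of THOC1, THOC5 and DDX39B span 0. The NXF1 interval (-0.49 to -0.01) also lies below 0, but its adjusted p in the edgeR F-test was 0.0879, so it was not called.

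ALYREF and one of the helicase genes fell. ALYREF, the adaptor that binds the mRNA and NXF1, lies on chromosome 17 (minus strand, 81887844 to 81891586). Its level was 125 and 132 CPM in shControl and 73.0 and 77.8 CPM in shRALY. It was lower by 1.70-fold, far more than the libraries of a group differed (log2 -0.77, SE 0.11; adjusted p = 5.60e-06). DDX39A, on chromosome 19 (minus strand, 14408819 to 14419383), measured 114 and 119 CPM in shControl and 59.7 and 55.1 CPM in shRALY. It was lower by 2.03-fold, with no overlap between groups (log2 -1.02, SE 0.11; adjusted p = 1.15e-07).

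The longest DDX39A transcript shares 0% of its 50-base words with any other gene. Its paralog DDX39B did not pass. The gene lies on chromosome 6 (minus strand, 31530219 to 31542448). It stood at 60.2 and 51.1 CPM in shControl and 60.2 and 59.9 CPM in shRALY, and the groups overlapped (log2 0.11, 95% interval -0.14 to 0.35; adjusted p = 0.502). The counts of DDX39B cover only part of its mRNA. The readthrough gene ATP6V1G2-DDX39B shares its strand and locus and overlaps 85.8% of the coding bases of DDX39B. ATP6V1G2-DDX39B had 0 counts in every library. Of the 1139 genes whose every exonic base is shared with a gene on the same strand, 95.2% had 0 counts in all 4 libraries, and no gene's counts summed to more than 13. A further 755 genes are fully shared only when genes on the opposite strand are included, and 99.6% of them had 0 counts. Among genes with no shared exonic base, 56.5% had 0 counts in all 4 libraries. For protein-coding genes alone, 82.6% of those fully shared on the same strand had 0 counts, against 22.0% of those with no shared base. Reads on shared exons were thus largely uncounted in these files, and the DDX39B count comes mainly from exons outside the overlap.

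NXF1, the export receptor, lies on chromosome 11 (minus strand, 62792123 to 62806302). It measured 67 and 63.7 CPM in shControl and 52.4 and 57.5 CPM in shRALY. Both shRALY libraries were below both control libraries, but the test was not passed (log2 -0.25, SE 0.11, 95% interval -0.49 to -0.01; adjusted p = 0.0879). It passed without shControl replicate 2 (log2 -0.27; adjusted p = 0.0263) and when libraries were scaled by their size alone (log2 -0.31; adjusted p = 0.0357).

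Levels of different genes were compared per kilobase of annotated exon (CPM per kilobase, the union of a gene's exons). In shControl, ALYREF was highest at 81.5 ± 3.36 CPM per kilobase (SD, n = 2) and DDX39A followed at 30.3 ± 0.76. THOC7 (15.4 ± 2.88), THOC6 (14.1 ± 1.11), THOC3 (12.3 ± 2.01), THOC2 (11.04 ± 0.75) and NXF1 (10.6 ± 0.38) came next, and each neighbour in this run overlapped the one after it. DDX39B (7.94 ± 0.93), THOC5 (5.15 ± 0.36) and THOC1 (3.20 ± 0.95) were lowest on this length, each below the range of the gene before it. In shRALY, ALYREF (47.9 ± 2.17) and DDX39A (14.95 ± 0.83) were again highest. NXF1 (8.88 ± 0.58) and DDX39B (8.57 ± 0.03) then overlapped, followed by THOC2 at 8.21 ± 0.17. THOC6 (7.35 ± 0.90), THOC7 (6.37 ± 0.62) and THOC5 (5.85 ± 0.27) overlapped from neighbour to neighbour, and THOC3 (4.95 ± 0.56) and THOC1 (2.80 ± 0.21) were lowest. The place of DDX39B rests on a length that includes exons whose reads went largely uncounted. Over exons that no other gene overlaps it stood at 11.5 ± 1.34 CPM per kilobase in shControl, overlapping THOC2 and NXF1, and at 12.4 ± 0.04 in shRALY, next after DDX39A. The order of other genes depends on the length too: with the longest transcript instead, 5 of the 10 genes changed rank in shControl and 6 in shRALY.

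The 6 THO levels summed to 61.9 and 60.4 CPM per kilobase in shControl and 36.0 and 35.0 in shRALY. Within that sum THOC5 took 7.91% and 8.96% in the control libraries and 15.7% and 17.3% in the shRALY libraries. THOC2 took 18.7% and 17.4% against 22.5% and 23.8%. THOC7 took 28.1% and 22.1% against 18.9% and 16.9%, and THOC3 17.6% and 22.8% against 12.6% and 15.3%. For these 4 subunits the shares of the groups did not overlap. The shares of a library add up to its whole, so a fall of some subunits raises the shares of others. THOC2 took a larger share though its level fell, and THOC5 though its level did not pass. THOC6 took 21.4% and 24.6% against 22.2% and 19.2%, with overlap. THOC1, whose level did not pass, took 6.25% and 4.19% against 8.16% and 7.57%, without overlap. These are shares of transcripts, and with 2 libraries against 2 no exact permutation test could pass, so none is given.

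**Figure D3:**
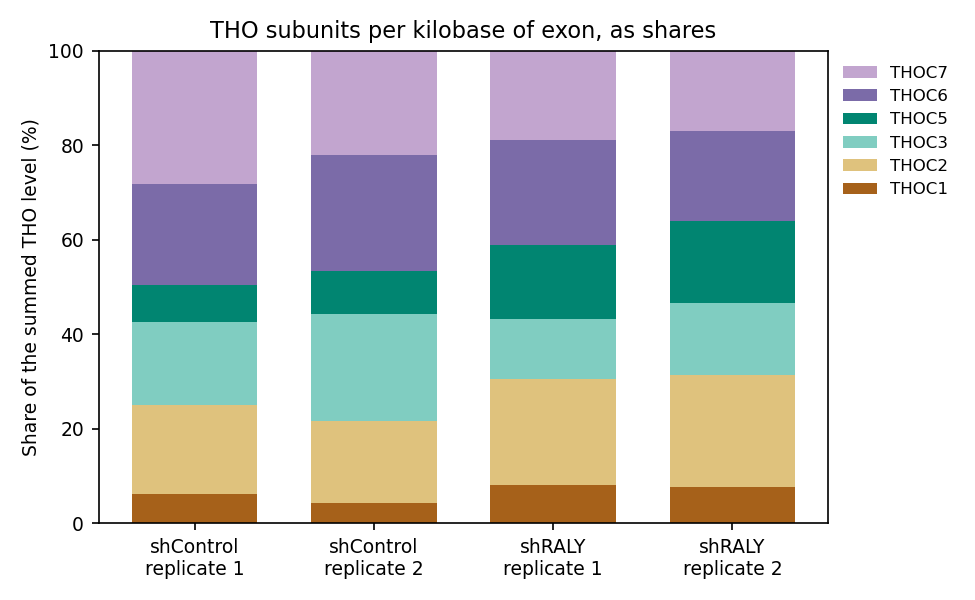
Share of each THO subunit in the summed THO level of its library, in percent, from CPM per kilobase of exon; each bar is 1 library and sums to 100%. The THOC5 segment is 7.91% and 8.96% in shControl and 15.7% and 17.3% in shRALY. The level of THOC5 itself did not pass, at 38.6 and 42.6 CPM in shControl and 44.6 and 47.6 CPM in shRALY. The summed THO level was 61.9 and 60.4 CPM per kilobase in shControl and 36.0 and 35.0 in shRALY.

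Between the helicase paralogs, DDX39A made up 77.6% and 80.9% of the summed DDX39A and DDX39B level per kilobase in shControl and 64.4% and 62.7% in shRALY. The share was lower in both shRALY libraries. Its size depends on the length given to DDX39B, whose shared exons went largely uncounted. With only the exons that no other gene overlaps, the means were 72.6% in shControl and 54.7% in shRALY, and with the longest transcript 85.0% and 72.2%.

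Genes that overlap a member or start within 1000 bases of its start were read beside it. HCFC1R1 starts 259 bases from THOC6 on the opposite strand and did not pass (log2 -0.31, SE 0.14; adjusted p = 0.0847), while THOC6 fell by 0.93 on the log2 scale. HCFC1R1 passed without shControl replicate 1 (log2 -0.33; adjusted p = 0.0469) and with library size alone (log2 -0.36; adjusted p = 0.0439). ANAPC11, an anaphase-promoting complex gene that starts 796 bases from ALYREF on the opposite strand, did not pass either (log2 -0.13, SE 0.12; adjusted p = 0.391). Its value rests on which control library is used: without shControl replicate 1 it was -0.27, and without shControl replicate 2 its sign reversed. USP14, a proteasome-linked deubiquitinase gene that meets THOC1 tail to tail, had a log2 fold change of -0.28 (adjusted p = 0.0728). Like THOC1 it passed without shControl replicate 2 (log2 -0.44; adjusted p = 5.84e-05), and it passed with library size alone too (log2 -0.33; adjusted p = 0.0323). NIPSNAP1, on the strand of THOC5, rose from 89.1 ± 1.42 to 110 ± 0.15 CPM (log2 0.31, SE 0.11; adjusted p = 0.0254). That call was lost without shRALY replicate 1 (log2 0.31; adjusted p = 0.246) or 2 (log2 0.32; adjusted p = 0.236), where the fold change was as large, and with library size alone (log2 0.25; adjusted p = 0.0634). Differences between a member and its neighbour were not tested. The other neighbours had at most 10 counts in any library. Among them was ATXN7, which starts 654 bases from THOC7 and whose exons are overlapped on its own strand over 96.5% of their length. Its longest transcript shares 99.9% of its words with other genes, with another entry also named ATXN7 sharing the most. The few counts of the entry read here thus do not give the level of ATXN7.

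Around the THO and TREX core, the wider export machinery was lower in part. Of 47 further genes in 7 lists, 41 were tested, 18 fell and 1 rose, beside backgrounds of 20.4% lower and 20.6% higher. The 41 lay at percentiles 38.2 to 96.0 of level among all tested genes, and the backgrounds were not matched for level. These lists, too, were chosen with earlier results of these data known. The median log2 fold change over the 41 was -0.28. Fewer of the 41 were called lower without shRALY replicate 1 or 2, and more were called higher without shControl replicate 1. In each of these settings the calls over all tested genes moved the same way, so the background of the main fit does not apply there. The lists differed in their counts, and differences between lists were not tested.

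Among the other TREX adaptors, 1 of 4 tested genes rose and none fell, though 1 was called lower without shControl replicate 1, without shControl replicate 2 and with library size alone. FYTTD1, which encodes the adaptor UIF, went from 53.1 ± 4.23 to 93.7 ± 2.77 CPM (log2 0.82, SE 0.11; adjusted p = 3.84e-06). SARNP and ZC3H11A had too few counts to test, at 4 to 11 and 1 to 10 per library. Same-strand genes overlap 27.2% of the exonic bases of SARNP and 93.6% of those of ZC3H11A. SARNP shares 16.8% of its words with other genes, and its few counts may not give its level. ZC3H11A also shares 99.4% of its words with other genes, so its few counts do not give its level. LUZP4 had 0 counts, which allows up to 0.163 to 0.183 CPM per library (3 counts, counting error only). Of the NXF1 partners, NXT1 and NXT2 were tested and neither passed, but 1 was called lower without shControl replicate 2. NXT1, the cofactor of NXF1, stood at 30.7 ± 2.14 and 31.4 ± 1.36 CPM (log2 0.04, 95% interval -0.24 to 0.31; adjusted p = 0.857). NXF5 had 0 counts in every library, with the same limit, and NXF3 had 1 count in all. NXF2 was also at 0, but it shares 99.3% of its words with other genes, so no limit is given for it.

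All 3 SR protein adaptors, splicing factors that can also recruit NXF1, fell. SRSF3 went from 319 ± 18.5 to 159 ± 1.81 CPM (log2 -1.002, SE 0.10; adjusted p = 4.97e-08) and SRSF7 from 175 ± 9.44 to 111 ± 7.61 CPM. SRSF1 went from 111 ± 12.3 to 54.9 ± 0.33 CPM, but 56.6% of its exonic bases are overlapped on its strand, which leaves its count uncertain. Of 6 cap-binding and linked genes, 4 fell and none rose. Fewer were called lower without shRALY replicate 1 or 2, as among all tested genes. ZC3H18, which links the cap-binding complex to RNA-processing factors, went from 97.5 ± 7.99 to 49.5 ± 3.31 CPM (log2 -0.98, SE 0.12; adjusted p = 4.17e-07). SRRT, which encodes the cap-complex partner ARS2, went from 161 ± 7.27 to 93.6 ± 1.32 CPM, and NCBP3 from 96.5 ± 0.47 to 65.9 ± 3.32 CPM. The NCBP3 call, though not its direction, was lost without shRALY replicate 2 (adjusted p = 0.0575).

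Of 9 exon junction complex genes and partners, 4 fell and none rose. PNN, which encodes pinin, went from 135 ± 12.9 to 85.5 ± 4.63 CPM (log2 -0.65, SE 0.11; adjusted p = 6.02e-05). RNPS1 was at log2 -0.40 and CASC3 at -0.33. Without shRALY replicate 1 they lost their call at log2 -0.38 and -0.31 (adjusted p = 0.135 and 0.263), and without shRALY replicate 2 at -0.40 and -0.33 (adjusted p = 0.118 and 0.24), so the fold changes hardly moved. In this list PNN alone remained called without shRALY replicate 1 or 2, settings in which fewer of all tested genes were called lower too. Of 11 pore-side factors, 6 fell and none rose. The nucleoporin genes NUP155, NUP153 and NUP214 had log2 fold changes of -0.93, -0.81 and -0.76 (adjusted p = 5.61e-07, 2.49e-06 and 1.63e-05). Of the 6 TREX-2 genes, which encode a complex that tethers genes and mRNA to the pore, 1 fell and none rose, although 2 were called higher without shControl replicate 1. The gene that fell, the scaffold MCM3AP, went from 98.6 ± 18.5 to 74.8 ± 8.74 CPM (log2 -0.40; adjusted p = 0.0163). It lost the call without shControl replicate 2 (log2 -0.18; adjusted p = 0.144) and without shRALY replicate 1 (log2 -0.28; adjusted p = 0.336).

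**Figure D4:**
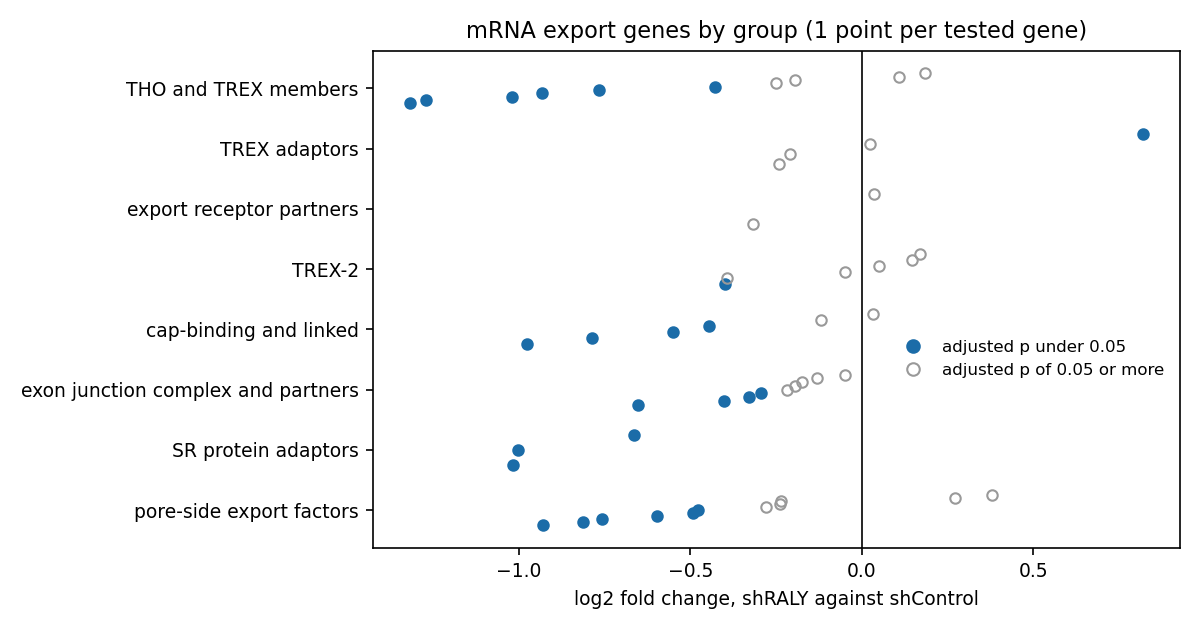
log2 fold change in shRALY against shControl for every tested gene of the THO and TREX group and of 7 lists of further mRNA export genes, 1 point per gene, filled where the adjusted p was under 0.05. Filled points to the left of 0 number 6 of 10 for the THO and TREX genes and 6 of 11 for pore-side factors. They number 3 of 3 for SR proteins and 4 of 6 for cap-binding and linked genes. For exon junction genes and partners they number 4 of 9, and for TREX-2 genes 1 of 6. Of all tested genes, 20.4% were called lower. The only filled point to the right of 0 is FYTTD1.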

How the data were processed

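The authors deposited a file of whole-number read counts for each library, by Ensembl identifier and without normalisation or pooling. The submitters' processing notes name HISAT2 2.0.5, featureCounts 1.5.0-p3, DESeq2 1.20.0 and hg38, without role or order; of the annotation release, strand setting and handling of multi-mapping reads the sources used here say nothing. All 58735 identifiers matched GENCODE 29.

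The test was that of edgeR 4.0.16 under R 4.3.3 (filterByExpr with min.count 10 and min.total.count 15, TMM scaling, robust quasi-likelihood F-test, 2 residual degrees of freedom, no covariate) on all 4 libraries. P-values were adjusted (Benjamini-Hochberg) over the 15912 genes tested and calls made under 0.05. Standard errors were taken as |log2 fold change| divided by the root of F. The F-test moderates the spread of each gene with that of the other tested genes. The pipeline was tested on simulated data. Alternatives included DESeq2 1.42.0, other scalings and filters, and libraries left out.

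The genes, lists and tests were chosen with earlier results of these data known. Named were RALY, the 10 genes, up to 3 called genes with the smallest adjusted p per further list (or its most abundant gene), and overlapping or adjacent genes. Exon overlap and shared words of 50 bases came from GENCODE 29. Replicate libraries were not duplicates: their differences exceeded counting noise (chi-square per gene 11.6 in shControl and 4.85 in shRALY).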

Additional observations from a re-analysis of the deposited data

How the results depend on the processing

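THOC3, THOC6, THOC7, ALYREF, DDX39A and RALY kept their direction and passed under all 12 alternatives. With a library left out, its group is down to 1 sample, which is assumed to vary like the other group. THOC2 lost its call without shRALY replicate 1 or 2 (log2 -0.40 and -0.44), with a range of -0.4809 to -0.3610 over the libraries left out. THOC1 was at log2 0.14 without shControl replicate 1, a reversal, and passed at -0.45 without shControl replicate 2. NXF1 passed with library size alone (-0.31), without shControl replicate 2 (-0.27; range -0.3069 to -0.1768) and with a replicate block (-0.25, adjusted p = 0.0492). Members called lower numbered 5 to 8 and members called higher 0 with a library left out. Over all tested genes, the counts with a library left out were 2040 to 3559 higher and 1897 to 3499 lower. Further export genes called higher numbered 1 to 4 with a library left out and 2 with the replicate block, against 1.

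Replicate numbers recur in both groups, but the labels do not say that they pair samples. Deviations of same-numbered libraries correlated at 0.13 across 14251 genes, for 1 pair of deviations. With the block, 3639 genes were higher and 3619 lower, against 3274 and 3245, and 7 members were lower. Of the neighbours, HCFC1R1 (log2 -0.31, adjusted p = 0.0382) and USP14 (-0.27, adjusted p = 0.0223) passed with the block.

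The DDX39A share was 85.0% in shControl and 72.2% in shRALY with the longest transcript, and 72.6% and 54.7% with exons that no other gene overlaps. THOC5 took 15.3% of the THO sum in shRALY with the longest transcript. Members at another rank numbered 5 in shControl and 6 in shRALY with the longest transcript, 4 and 4 with exons free of overlap, and 2 to 3 in shControl and 2 in shRALY with a library left out. The lengths free of overlap and the THOC5 share were chosen after seeing the data. ANAPC11 turned to log2 0.0267 without shControl replicate 2, and NXT1 to -0.0196 with library size alone, -0.0380 without shControl replicate 1 and -0.0026 without shRALY replicate 1 (range up to 0.1239). Causes were not tested. Depth did not limit the members, which had 173 or more counts in every library, but it limits NXF3, NXF5 and LUZP4.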
